A study of Homo sapiens with 6 samples.

Results

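The ULK complex and the class III phosphatidylinositol 3-kinase (PI3K) complex are the protein assemblies that start autophagy, the process by which a cell encloses its own cytoplasm in a membrane and delivers it to the lysosome. Transcripts of their 10 core subunits, RB1CC1, ULK1, ULK2, ATG13, ATG101, PIK3C3, PIK3R4, BECN1, ATG14 and UVRAG, were taken by gene symbol from a count table of 28491 genes in HCT116 cells, a human colorectal carcinoma line. RB1CC1 and PIK3C3 had been selected on their higher counts in the same comparison that is described here, so their values are given as a description with no test. The other 8 genes entered as partners in the same complexes, and each carries an adjusted p from a fit over all genes tested.

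The study asked how overexpression of RBM47, an RNA-binding protein that acts on splicing, stability and editing of transcripts, changes gene expression in colorectal cancer cells. Poly(A) RNA of 3 libraries from HCT116 cells transfected with a control plasmid (NC) was compared with that of 3 libraries from cells transfected with an RBM47 plasmid (RBM47-OE). All cells were transfected with a lipid reagent, and the labels give harvest at 48 h after transfection. The labels name the plasmid pcDNA3.1-3xFlag-RBM47 and the medium DMEM, whereas the study's methods give another vector, medium and library kit. The cells were transfected with plasmid as a whole culture, RBM47 per cell was not measured, and nothing states that the 3 libraries of a group came from separate cultures. The p-values therefore measure only the spread between these libraries, which may be technical.

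In the ULK complex, ULK1 and its paralog ULK2 are serine/threonine kinases, ATG13 and ATG101 form the regulatory pair that recruits them, and RB1CC1 (FIP200) is the large scaffold on which the complex assembles. The kinase is held back by mTORC1 when nutrients are present and is switched on by AMPK and starvation. It then activates the class III PI3K complex, in which the lipid kinase PIK3C3 (VPS34) and its partner PIK3R4 (VPS15) bind BECN1 and make phosphatidylinositol 3-phosphate (PI3P) on membranes. ATG14 and UVRAG compete for the same place in that complex. The ATG14 form acts at the growing autophagosome and the UVRAG form on endosomes and later steps.

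Library totals ran from 26792409 to 35477983 counts, and the 10 subunits had between 270 and 2620 counts in each library. RBM47 itself was at 1.91, 2.33 and 1.94 FPKM (fragments per kilobase of gene, scaled to library depth in mapped fragments) in NC replicates 1 to 3. In RBM47-OE replicates 1 to 3 it was at 131, 130 and 127 FPKM, which fits the labels. RBM47-OE replicate 1 stood apart: its median absolute log2 difference over all genes was 0.18 and 0.19 to the other RBM47-OE libraries, 0.14 between those 2, and 0.18 to 0.20 to the NC libraries. Of 7 epithelial markers, 5 were at or above 1 FPKM, while VIL1 and CDH17 were under 0.1 FPKM in every library. Summed fibroblast markers (COL1A1 almost alone) lay at 1.42 to 1.72 FPKM in NC against 1.31 to 1.73 in RBM47-OE, leukocyte and endothelial sums were at most 0.31, and COL1A2, DCN, LUM, PTPRC and CLDN5 were at 0 or absent from the table.

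All 10 subunits passed the filter on low counts, and 5 were called higher, 3 lower and 2 not called in RBM47-OE. The 5 higher were RB1CC1 and PIK3C3, which had been selected for it, with ULK2, BECN1 and ATG14. The 3 lower were ULK1, ATG13 and ATG101, all of the ULK complex, and PIK3R4 and UVRAG did not pass. Of 16260 genes tested with edgeR's quasi-likelihood test at an adjusted p under 0.05, 19.1% were called higher and 16.9% lower. The same 5 and 3 genes had CPM (counts scaled to library size, with TMM factors) that did not overlap between the groups, against 23.2% of all genes above and 23.4% below. These counts include the genes the choice used, so nothing is read from them against the background. RNA was taken from bulk cultures, in which fewer cells of a type and less RNA per cell cannot be told apart.

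By complex, ULK subunits split into 2 higher and 3 lower with a median log2 fold change of -0.24, and class III PI3K subunits into 3 higher, 0 lower and 2 not called with a median of 0.21. The median of all genes tested was 0.00. These counts and medians hold RB1CC1 in the ULK complex and PIK3C3 in the class III PI3K complex, so they are a description. Apart from these genes, ULK2 was higher and ULK1, ATG13 and ATG101 were lower in the ULK complex. BECN1 and ATG14 were higher in the class III PI3K complex. Without RB1CC1 and PIK3C3, the other 8 subunits were 3 higher, 3 lower and 2 not called, with a median of 0.07. The shares over all genes tested were 19.1% higher and 16.9% lower.

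**Figure D1:**
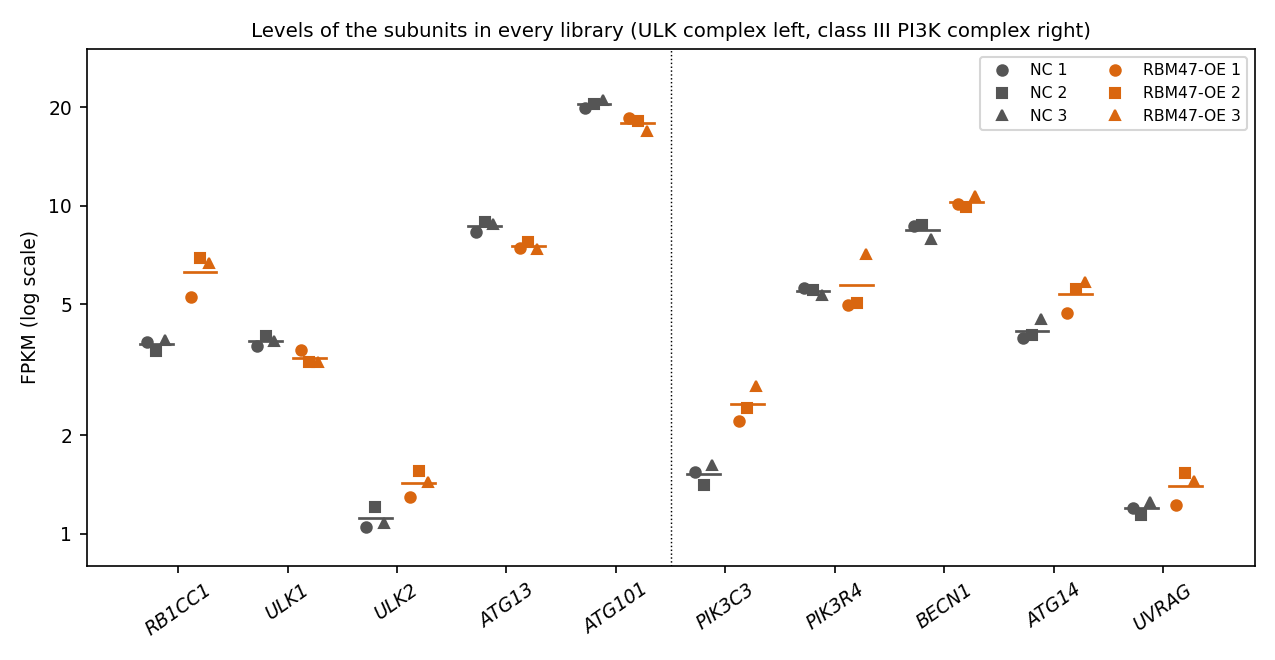
FPKM on a log axis of the 10 subunits in the 3 NC libraries (grey) and the 3 RBM47-OE libraries (orange), with symbols for replicates and bars for the group means. ATG101 was highest at 16.87 to 20.98 FPKM, RB1CC1 and PIK3C3 showed the widest gaps between the groups, and PIK3R4 of RBM47-OE replicate 3 (7.15) lay apart from replicates 1 and 2.

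RB1CC1 (ENSG00000023287.13, chr8:52622458-52745843, minus strand, gene models here and below from GENCODE 44 on GRCh38), the scaffold, was at 3.83, 3.60 and 3.91 FPKM in NC replicates 1 to 3 and at 5.28, 6.95 and 6.67 in RBM47-OE replicates 1 to 3. Every RBM47-OE library lay above every NC library, and replicate 1 was the lowest of the RBM47-OE group. By edgeR on counts with TMM factors, RB1CC1 was at 1.58 times NC, a log2 fold change of 0.66 ± 0.088 (SE, n = 3). Without RBM47-OE replicate 1 the log2 fold change was 0.77. Mean FPKM, scaled to library depth alone, was 3.78 in NC and 6.30 in RBM47-OE.

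ATG13 (ENSG00000175224.17, chr11:46617527-46674818, plus strand), which bridges the kinases and the scaffold, showed the opposite course. It was at 8.33, 8.91 and 8.78 FPKM in NC against 7.44, 7.77 and 7.40 in RBM47-OE. The groups did not overlap and each varied little. ATG13 fell by 0.27 on the log2 scale (SE 0.071, edgeR adjusted p = 0.0041), and the call was kept without any single library, at -0.30 to -0.26.

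Its partner ATG101 (ENSG00000123395.15, chr12:52069246-52077495, plus strand) was at 19.90, 20.49 and 20.98 FPKM in NC against 18.51, 18.16 and 16.87 in RBM47-OE. Replicate 3 was lowest and replicate 1 nearest to the NC libraries, still without overlap. ATG101 fell by 0.27 on the log2 scale (SE 0.073, edgeR adjusted p = 0.0056), and by 0.30 without RBM47-OE replicate 1. The call was kept without any single library, but not with an offset for exonic GC content that is described further on (-0.09, edgeR adjusted p = 0.29) or by limma on unfiltered FPKM (adjusted p = 0.058). Its exons share 19.2% of their bases with a gene on the opposite strand that had 48 to 88 counts against 1731 to 2620 for ATG101.

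The paralogs ULK1 (ENSG00000177169.10, chr12:131894622-131923150, plus strand) and ULK2 (ENSG00000083290.20, chr17:19770829-19867936, minus strand) moved in opposite directions. ULK1 was at 3.73, 4.01 and 3.87 FPKM in NC against 3.63, 3.33 and 3.33 in RBM47-OE, and RBM47-OE replicate 1 lay just below the lowest NC library. ULK2 was at 1.05, 1.21 and 1.08 FPKM in NC against 1.29, 1.55 and 1.44 in RBM47-OE, again without overlap and with replicate 1 nearest to NC. ULK1 fell by 0.24 on the log2 scale (SE 0.085, edgeR adjusted p = 0.027) and ULK2 rose by 0.28 (SE 0.11, edgeR adjusted p = 0.042). Neither call was firm. Without RBM47-OE replicate 1 both were kept, at -0.30 and 0.34, but without any one of the other 5 libraries both were lost. The adjusted p by edgeR then lay between 0.057 and 0.13 for ULK1 and between 0.051 and 0.16 for ULK2. With the GC offset ULK1 was at -0.02 and ULK2 at 0.25 (edgeR adjusted p 0.85 and 0.075).

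A stretch where both kinases encode the same residues with different codons is printed because base composition is compared among the members further on. Over their canonical proteins of 1050 and 1036 residues, ULK1 and ULK2 were identical at 57.1% of aligned positions (569 of 996), gaps left out. The longest run of residues shared by both proteins without a gap was 26 residues, in the kinase domain. It spans positions 174 to 199 of ULK1 and 167 to 192 of ULK2. It is encoded across exons 7 and 8 of both genes, at chr12:131908927-131909168 (plus strand) for ULK1 and chr17:19843190-19845348 (minus strand) for ULK2, with an intron between the exons that is not shown. Both coding sequences are from GRCh38 with GENCODE 44 gene models, and capitals mark the bases that differ between them.
ULK1: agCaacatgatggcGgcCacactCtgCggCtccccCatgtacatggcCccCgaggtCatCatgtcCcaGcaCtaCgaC
ULK2: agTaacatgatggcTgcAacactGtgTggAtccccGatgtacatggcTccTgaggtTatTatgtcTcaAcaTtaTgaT

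Of these 78 bases 16 differed, all 16 at the last position of a codon. ULK1 had G or C at all 16 and ULK2 at 2 of them. GC content was 61.5% in ULK1 and 43.6% in ULK2 over the stretch, and 96.2% and 42.3% at last positions of codons. Over all exons of each gene it was 63.6% for ULK1 and 47.1% for ULK2.

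PIK3C3 (ENSG00000078142.13, chr18:41955234-42087830, plus strand), the lipid kinase of the second complex, was at 1.54, 1.41 and 1.62 FPKM in NC against 2.21, 2.41 and 2.82 in RBM47-OE. The lowest RBM47-OE library lay above the highest NC library, and replicate 3 was the highest of all. By edgeR on counts with TMM factors, PIK3C3 was at 1.55 times NC, a log2 fold change of 0.63 ± 0.093 (SE, n = 3). Without RBM47-OE replicate 1 the log2 fold change was 0.70. Mean FPKM, scaled to library depth alone, was 1.52 in NC and 2.48 in RBM47-OE.

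PIK3R4 (ENSG00000196455.8, chr3:130678934-130746829, minus strand), the pseudokinase that holds PIK3C3 in the complex, did not follow it. It was at 5.63, 5.55 and 5.34 FPKM in NC against 4.97, 5.05 and 7.15 in RBM47-OE. RBM47-OE replicates 1 and 2 lay below all NC libraries and replicate 3 above all of them. The log2 fold change was -0.02 (SE 0.11, edgeR adjusted p = 0.92). Without RBM47-OE replicate 3 it was -0.21 (edgeR adjusted p = 0.069), and without RBM47-OE replicate 1 or 2 it was 0.07 or 0.08, so the sign changed with single libraries.

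BECN1 (Beclin 1, ENSG00000126581.13, chr17:42810134-42833350, minus strand), the platform on which the kinase pair meets ATG14 or UVRAG, was at 8.70, 8.71 and 7.90 FPKM in NC against 10.14, 9.90 and 10.69 in RBM47-OE. The groups were separate, and NC replicate 3 was the lowest library. BECN1 rose by 0.21 on the log2 scale (SE 0.075, edgeR adjusted p = 0.030). The call was lost without NC replicate 1, 2 or 3 or RBM47-OE replicate 3 (edgeR adjusted p 0.064, 0.078, 0.20 and 0.094) and kept without RBM47-OE replicate 1 at 0.21. With the GC offset it was at 0.15 (edgeR adjusted p = 0.11). Of its exonic bases 12.4% are shared with CNTD1 and 4.68% with PSME3 on the opposite strand, and PSME3, a proteasome activator subunit with 4328 to 6360 counts, fell by 0.35 (edgeR adjusted p = 0.00070).

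ATG14 (ENSG00000126775.9, chr14:55366391-55411830, minus strand), which brings the complex to the site where autophagosomes form, was at 3.95, 4.03 and 4.50 FPKM in NC against 4.72, 5.58 and 5.84 in RBM47-OE. RBM47-OE replicate 1 lay only just above NC replicate 3. ATG14 rose by 0.30 on the log2 scale (SE 0.093, edgeR adjusted p = 0.015) and by 0.38 without RBM47-OE replicate 1. Without NC replicate 1, NC replicate 2 or RBM47-OE replicate 3 the call was lost (edgeR adjusted p 0.078, 0.083 and 0.073). It was also lost with the GC offset, at 0.16 (edgeR adjusted p = 0.19). ATG14 shares 20.8% of its exonic bases (1047 of 5025) with FBXO34 on the opposite strand, which rose by 0.36 (edgeR adjusted p = 0.0022). The libraries were made with a directional kit by the labels, but whether counting used the strand is not given in the sources used here, so the part of these overlaps in either result was not tested.

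UVRAG (ENSG00000198382.9, chr11:75815210-76144232, plus strand), the alternative partner, was at 1.20, 1.14 and 1.25 FPKM in NC against 1.22, 1.53 and 1.45 in RBM47-OE. RBM47-OE replicate 1 lay within the NC range and the other two above it. The log2 fold change was 0.16 (SE 0.12, edgeR adjusted p = 0.31), and 0.24 without RBM47-OE replicate 1 (edgeR adjusted p = 0.085). UVRAG had the lowest counts of the 10, 270 to 388 per library.

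The subunits were put in order by FPKM, which is per length of all exons of a gene. In NC the order ran from ATG101 (20.5 ± 0.54, SD, n = 3) through ATG13 (8.67 ± 0.30) and BECN1 (8.44 ± 0.46), which overlapped, to PIK3R4 (5.51 ± 0.15). ATG14 (4.16 ± 0.30), ULK1 (3.87 ± 0.14) and RB1CC1 (3.78 ± 0.16) each overlapped the next. PIK3C3 (1.52 ± 0.11) stood below them, and UVRAG (1.20 ± 0.055) and ULK2 (1.11 ± 0.085), which overlapped, came last. Per kilobase of the canonical transcript instead, BECN1 (29.1) stood above ATG13 (16.2) and ULK1 (6.29) above ATG14 (5.04) in NC. In RBM47-OE, UVRAG (2.27) stood above ULK2 (1.74) by this measure, the reverse of the FPKM order. The order within these pairs thus rested on the gene length used.

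In RBM47-OE, BECN1 (10.2 ± 0.41) stood above ATG13 (7.54 ± 0.20) without overlap. RB1CC1 (6.30 ± 0.89) was now level with PIK3R4 (5.72 ± 1.24) and ATG14 (5.38 ± 0.59), above ULK1 (3.43 ± 0.17). ATG101 stayed first at 17.8 ± 0.86, and PIK3C3 (2.48 ± 0.31) still stood between ULK1 and the pair of ULK2 (1.43 ± 0.13) and UVRAG (1.40 ± 0.16). Among 16368 protein-coding genes, ATG101 lay at the 88.6th percentile in NC and ULK2 at the 37.6th. The summed FPKM of the ULK subunits was 37.9 ± 0.93 in NC and 36.5 ± 1.08 in RBM47-OE, and that of the class III PI3K subunits 20.8 ± 0.21 and 25.2 ± 2.43. These sums include RB1CC1 and PIK3C3, which were selected for their rise, so they are a description. The class III PI3K sum was highest in RBM47-OE replicate 3 (27.95), the library with PIK3R4 at 7.15.

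**Figure D2:**
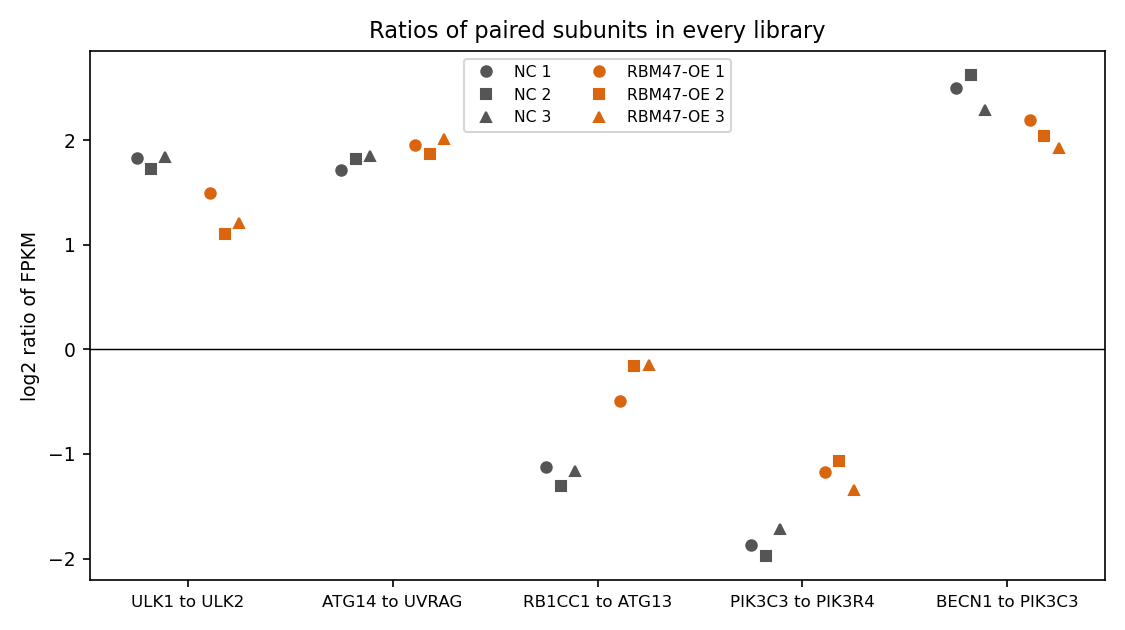
log2 ratio of FPKM for 5 pairs of subunits in each NC (grey) and RBM47-OE (orange) library, symbols giving the replicate. In none of the 5 pairs did the groups overlap, and the mean shifted furthest for RB1CC1 to ATG13 (0.93) and least for ATG14 to UVRAG (0.15).

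Ratios between partners were taken within each library, as a description, because they come from the comparison used to choose members. ULK1 to ULK2, the paralog ratio, was 3.55, 3.31 and 3.58 in NC against 2.81, 2.15 and 2.31 in RBM47-OE, so ULK1 was the more abundant kinase transcript in every library and by less in RBM47-OE. The mean log2 ratio differed by -0.53 between the groups. ATG14 to UVRAG, the 2 competing partners of BECN1, was 3.29, 3.54 and 3.60 in NC against 3.87, 3.65 and 4.03 in RBM47-OE, a difference of 0.15 with RBM47-OE replicate 2 just above NC replicate 3.

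RB1CC1 to ATG13 was 0.46, 0.40 and 0.45 in NC against 0.71, 0.89 and 0.90 in RBM47-OE. By FPKM the scaffold transcript thus came closer to that of ATG13. How close rested on the gene length used. Per kilobase of the canonical transcript, RB1CC1 stayed further below ATG13 in RBM47-OE than it did by FPKM. PIK3C3 to PIK3R4, whose proteins bind as a pair, was 0.27, 0.25 and 0.30 in NC against 0.44, 0.48 and 0.39 in RBM47-OE. BECN1 to PIK3C3 went from 5.57 ± 0.65 (SD, n = 3) to 4.16 ± 0.40. The size of these ratios too rested on the gene length used. Per kilobase of the canonical transcript, BECN1, PIK3C3 and PIK3R4 were at 29.1, 2.79 and 6.70 in NC. In RBM47-OE they were at 35.1, 4.51 and 6.91, so BECN1 stood further above PIK3C3, and PIK3C3 closer to PIK3R4, than by FPKM. These last 3 ratios all hold RB1CC1 or PIK3C3 and shifted in the direction that their selection gives.

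Exonic GC content moved with the fold change of these genes. RB1CC1 (37.8%) and PIK3C3 (37.7%) had the lowest GC content of the 10 and the largest increases, and ULK1 (63.6%), ATG101 (56.7%) and ATG13 (49.0%) had the highest and were the 3 that fell. The others were PIK3R4 at 43.5%, ATG14 at 44.2%, UVRAG at 45.9%, BECN1 at 46.3% and ULK2 at 47.1%. By complex, the median was 49.0% for ULK subunits and 44.2% for class III PI3K subunits. Spearman's rho between GC content and log2 fold change was -0.57 over the 8 genes not selected for their rise, which share the same 6 libraries, and -0.63 over 16233 genes tested. With RB1CC1 and PIK3C3, which are both lowest in GC content and selected for rising, it was -0.77 over 10. In single RBM47-OE libraries, against the NC mean, it was -0.17, -0.62 and -0.81 over the 8 for replicates 1 to 3.

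**Figure D3:**
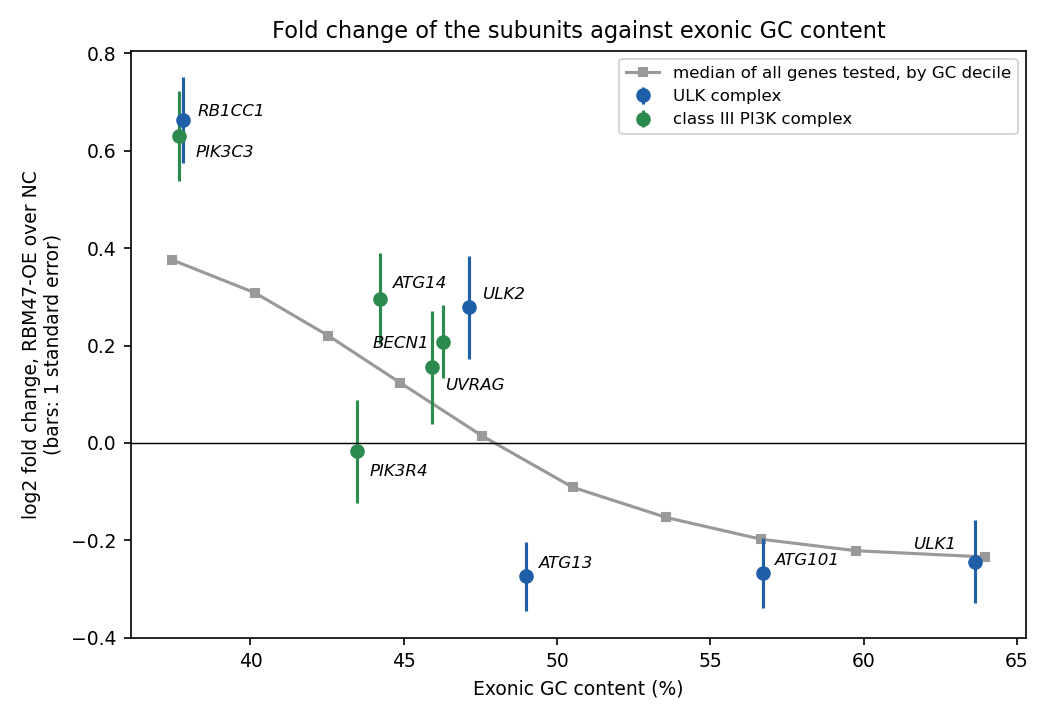
log2 fold change (RBM47-OE over NC, bars 1 SE) of ULK subunits (blue) and class III PI3K subunits (green) against exonic GC content in percent, with the median of all genes tested in each GC decile (grey squares). RB1CC1 and PIK3C3, selected for their rise, lie above the lowest decile's median of 0.38. ULK1 (-0.24) lies on the highest decile's median of -0.23, and PIK3R4 and ATG13 lie below the line.

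In the decile of all genes lowest in GC content, which holds RB1CC1 and PIK3C3, the median log2 fold change was 0.38 and 65.0% of the genes were called higher. RB1CC1 and PIK3C3 stood 0.29 and 0.25 above that median. Both had been selected for rising, so this gap is a description. ULK1 was within 0.01 of the median of its decile (-0.23), and ATG101 was 0.07 below its own (-0.20). PIK3R4 was 0.24 below the median of genes like it in GC content (0.22), ATG13 0.18 below (-0.09), and ULK2 0.26 above (0.01).

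At the last positions of codons in the coding sequence, GC content was lowest in RB1CC1 (30.2%), PIK3R4 (38.6%) and PIK3C3 (39.7%) and highest in ULK1 (83.5%), ATG101 (80.3%) and BECN1 (60.2%). By this measure the direction was less sorted: PIK3R4 was not called, and BECN1 and ATG14 (54.5%) rose whereas ATG13 (50.9%) fell. The 3′ UTR of the canonical transcript ran from 305 bases in ATG101 and 381 in PIK3R4 to 5519 in ULK2 and 6693 in PIK3C3. Over all exons the members (median 7174 bases) were longer than all genes tested (4717), and Spearman's rho of exonic length with log2 fold change was 0.41 over the 10 and 0.10 over the 8 not selected for their rise.

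The fit was repeated with an offset that removes, in each library, the smooth trend of counts with exonic GC content. Of the 10 subunits 9 came closer to 0, all but PIK3R4. Fold changes shrank over all genes as well. The median absolute log2 fold change went from 0.27 to 0.17 over the members and from 0.24 to 0.14 over all genes tested. RB1CC1 was then at 0.32 and PIK3C3 at 0.29, given as a description. Of the other 8, 0 were called higher and 1 lower, where the offset called 6.0% of all genes higher and 8.46% lower. That 1 was ATG13, at -0.23 (edgeR adjusted p = 0.0069). ULK1, ULK2, ATG101, BECN1 and ATG14 lost their calls, with the values given above. UVRAG was at 0.08 and PIK3R4 at -0.19 (edgeR adjusted p 0.67 and 0.19). Without RBM47-OE replicate 3 and with the offset, PIK3R4 was lower at -0.35 (edgeR adjusted p = 0.0040). The offset also removes any change in expression that itself follows GC content, and these cannot be told apart here.

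**Figure D4:**
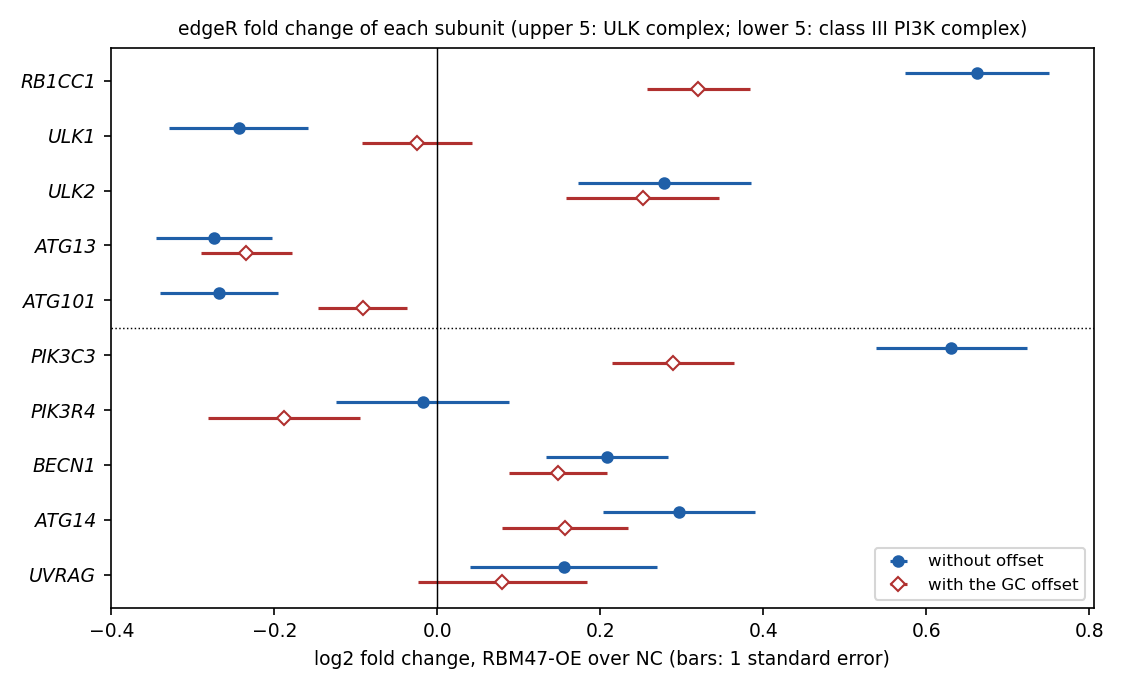
edgeR log2 fold change of each subunit (RBM47-OE over NC, bars 1 SE) without the offset (filled blue circles) and with the GC offset (open red diamonds). RB1CC1 went from 0.66 to 0.32, PIK3C3 from 0.63 to 0.29 and ULK1 from -0.24 to -0.02, whereas ATG13 (-0.27 and -0.23) and ULK2 (0.28 and 0.25) hardly moved.

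With the offset, the ULK1 to ULK2 difference in log2 ratio was -0.28, RB1CC1 to ATG13 0.55, PIK3C3 to PIK3R4 0.49, BECN1 to PIK3C3 -0.14 and ATG14 to UVRAG 0.08. In direction the 5 were as before, and each was smaller.

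Over the 6 libraries, the genes whose log2 CPM followed RB1CC1 most closely by Pearson's r were C2orf69, BLOC1S5 and ARHGAP21, each at 1.00 to 2 decimals. For PIK3C3 they were MED14, PAFAH1B1 and METAP1, also at 1.00. Such likeness was common, since 2204 of 10331 genes compared had r over 0.9 with RB1CC1 and 1767 with PIK3C3. The 6 named genes had exonic GC contents of 40.5% to 43.3%. Their log2 fold changes were 0.53, 0.64 and 0.32 for C2orf69, BLOC1S5 and ARHGAP21, and 0.13, 0.14 and 0.24 for MED14, PAFAH1B1 and METAP1. Pearson's r does not measure the size of a change, and the genes most like PIK3C3 rose by less than PIK3C3 itself (0.63).

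Of 99 other autophagy genes on 8 lists, 95 were tested, 28 were called higher (29.5%) and 16 lower (16.8%) by the same edgeR fit, with a median log2 fold change of 0.05, beside 19.1% and 16.9% of all genes tested. With the GC offset 13 were higher and 6 lower, beside 6.0% and 8.46% of all genes. The regulators upstream of the ULK complex were divided: of 16 AMPK and mTORC1 genes 4 rose and 4 fell. PRKAA1, an AMPK catalytic subunit, rose by 0.37. Of the mTORC1 genes, DEPTOR rose by 0.70 and AKT1S1 and MLST8 fell by 0.43 and 0.42 (edgeR adjusted p at most 0.0032 for all 4). With the offset PRKAA1 was at 0.00 (edgeR adjusted p = 0.99) and the other 3 kept their calls.

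The 10 genes related to the complexes took in binding partners, kinases named for likeness to ULK1 and the membrane proteins VMP1 and TMEM41B. Of these 3 rose and 2 fell, beside 19.1% and 16.9% of all genes tested. AMBRA1, which links BECN1 to ULK1, fell by 0.36 and ULK3, a related kinase, by 0.24. TMEM41B, a lipid scramblase, rose by 0.42 and SH3GLB1, which binds BECN1 through UVRAG, by 0.26 (edgeR adjusted p 0.00029 to 0.026 over the 4). With the offset only AMBRA1 of these 4 was called, at -0.26 (edgeR adjusted p = 0.012).

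Of 12 other genes that make or remove PI3P 5 rose and 1 fell (41.7% and 8.33%), beside 19.1% and 16.9% of all genes tested. Their median exonic GC content was 43.7%. With the GC offset 2 were higher and 0 lower, beside 6.0% and 8.46% of all genes. PIK3C2A, a class II kinase that also makes PI3P, rose by 0.61, from 52.4 to 59.3 CPM in NC to 77.2 to 89.2 CPM in RBM47-OE. The phosphatases MTMR6 and MTM1 rose by 0.57 and 0.50, and PIKFYVE, which turns PI3P into the bisphosphate, rose by 0.38 (edgeR adjusted p at most 0.0027 for all 4). With the offset PIK3C2A kept its call at 0.27 (edgeR adjusted p = 0.0027) and the other 3 did not.

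Of 9 genes of ATG9 and PI3P effectors 1 rose and 1 fell, beside 19.1% and 16.9% of all genes tested. WIPI1, which reads PI3P on the growing membrane, rose by 0.29 (edgeR adjusted p = 0.012) and ATG9A, the scramblase of the seed vesicles, fell by 0.25 (edgeR adjusted p = 0.013). With the offset WIPI1 kept its call at 0.33 (edgeR adjusted p = 0.0044) and ATG9A was at -0.05 (adjusted p = 0.63). Of 16 genes of the ATG12 and LC3 conjugation systems 3 rose and 3 fell. Of the LC3 proteases, ATG4A rose by 0.46 and ATG4C by 0.33, ATG4B fell by 0.39 and ATG4D, named after its value was seen, by 0.25, and ATG5 rose by 0.43 (edgeR adjusted p 0.00047 to 0.038). All 5 lost their calls with the offset, at 0.28, -0.04, -0.19, -0.03 and 0.16 (edgeR adjusted p 0.060 to 0.84), and ATG4C changed sign. With the offset 1 gene of the list was higher and 1 lower, beside 6.0% and 8.46% of all genes, and neither was called without it. These were GABARAPL1 at 0.18 and ATG12 at -0.35 (edgeR adjusted p 0.046 and 0.00035), named after their values were seen. MAP1LC3A and MAP1LC3C did not pass the filter on low counts.

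Receptors that tie cargo to the autophagosome were called higher in 9 of 12 and lower in 2, with a median of 0.31, where 19.1% of all genes tested were higher and 16.9% lower. RETREG1, a receptor for endoplasmic reticulum, rose by 0.69, TAX1BP1 by 0.53, the mitochondrial receptor BNIP3L by 0.52 and the ferritin receptor NCOA4 by 0.41 (edgeR adjusted p at most 0.00049). Their median exonic GC content was 44.4%, and with the offset 6 were higher and 0 lower, with these 4 among the 6, where 6.0% and 8.46% of all genes were called. SQSTM1 (p62), named after its value was seen, was lower by edgeR at -0.22 (adjusted p = 0.015), and at -0.03 with the offset (adjusted p = 0.74).

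Of 13 genes of autophagosome fusion 2 rose and 3 fell, beside 19.1% and 16.9% of all genes tested. The tethering subunits VPS41 and VPS18 moved in opposite directions, at 0.36 and -0.55, the SNARE STX17 rose by 0.33 and the SNARE YKT6 fell by 0.24 (edgeR adjusted p at most 0.0066 for these 4). With the offset VPS18 (-0.35) and YKT6 (-0.16) kept their calls (edgeR adjusted p 0.0031 and 0.046), while VPS41 and STX17 were at 0.07 and 0.08 (edgeR adjusted p 0.51 and 0.54). Of 7 transcription factors of autophagy genes, the TFEB and FOXO families with the repressor ZKSCAN3, 1 rose and 0 fell: FOXO3 at 0.20 (edgeR adjusted p = 0.030), with 0.25 under the offset (edgeR adjusted p = 0.0055).

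**Figure D5:**
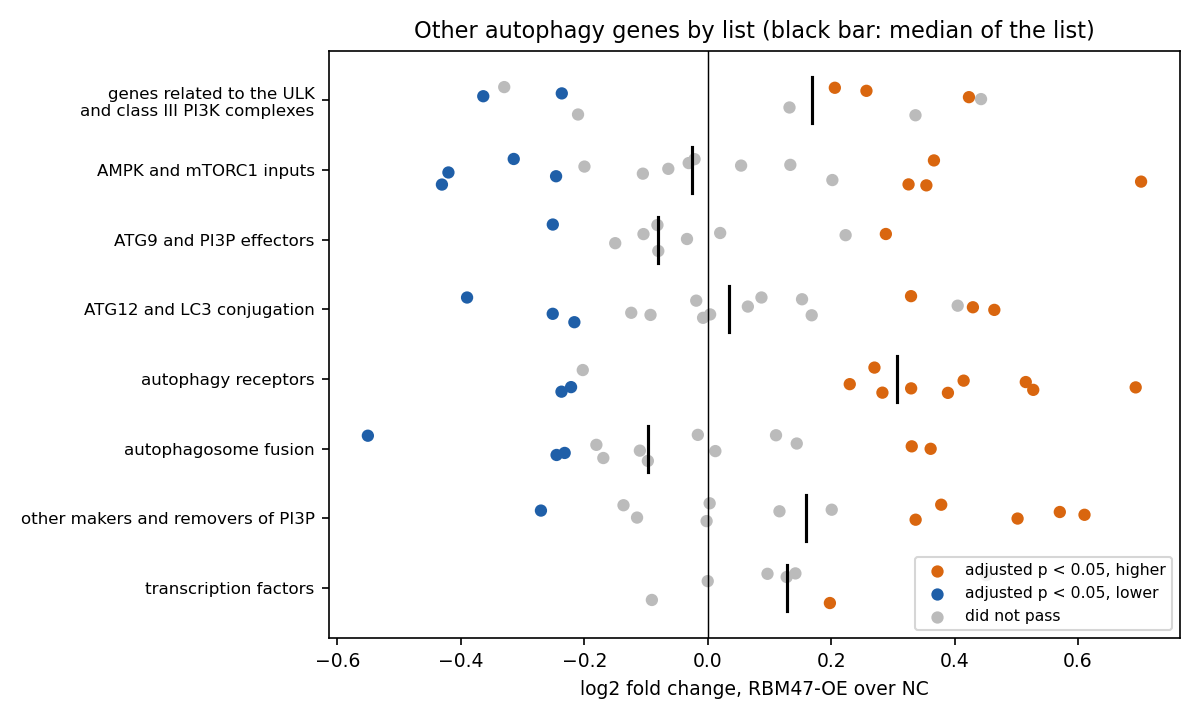
log2 fold change (RBM47-OE over NC) of 95 other autophagy genes in 8 lists, each point a gene, orange or blue where the edgeR adjusted p was under 0.05 and grey otherwise, with a black bar at the median of the list. Receptors have the highest median (0.31) and the fusion genes the lowest (-0.10), and all lists but the transcription factors hold genes called in both directions.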

How the data were processed

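After trimming with FASTX-Toolkit and HISAT2 alignment to GRCh38, the authors counted uniquely mapped reads. They deposited raw counts per gene and FPKM values for each library. The counting tool, its use of strand and the annotation release are not given in the sources used here. Counts per kilobase of the union of GENCODE 44 exons, scaled to summed counts, were 1.12 to 1.14 times the deposited FPKM (median by library). Within a library the factor was nearly constant, with quartiles of 1.143 and 1.144 in NC replicate 1. It differed between libraries, at 1.12 in RBM47-OE replicate 3, so it is a factor of scaling and not of gene length. Members and lists were chosen with earlier results of these data known.

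Counts were tested with edgeR 4.0.16 (filterByExpr, minimum count 10, TMM, glmQLFit and glmQLFTest, RBM47-OE against NC, no covariate) in R 4.3.3, with Benjamini-Hochberg adjustment over 16260 genes and a threshold of 0.05. The SE of an edgeR log2 fold change was the absolute log2 fold change over the square root of the test's F statistic. The study used DESeq2. FPKM served for levels and ratios. Exonic GC content came from GENCODE 44. The GC offset was a loess trend (span 0.3) per library. Of the other autophagy genes, up to 4 per list past the threshold with the largest absolute log2 fold change were named. Alternatives were DESeq2 1.42.0, limma 3.58.1 on log2(FPKM + 1) and log2(FPKM + 0.1), other scalings, filters and offsets, a replicate block, and each library left out. The edgeR code was tested on simulated data. PIK3C2G was not analysed here.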

Additional observations from a re-analysis of the deposited data

How the results depend on the processing

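The 8 subunits not selected for their rise were refitted under 21 alternatives, which gave 168 fold changes: 105 kept direction and side of the threshold, 54 lost and 1 gained significance, and 8 changed sign. ATG13 kept both in 20 of 21 and UVRAG, not called, in all 21. As a description, RB1CC1 ran from 0.29 to 0.77 and PIK3C3 from 0.24 to 0.70, both lowest with the GC offset and 1 library left out. PIK3R4 changed sign under 7: library totals (0.043), limma on log2(FPKM + 1) with and without a filter (0.032 each), limma on log2(FPKM + 0.1) (0.035), and without NC replicate 1 (0.0015), RBM47-OE replicate 1 (0.069) or RBM47-OE replicate 2 (0.079), against -0.21 without RBM47-OE replicate 3. ULK1 changed sign once, at 0.00034 with the GC offset without RBM47-OE replicate 2. The fits with the offset and 1 library left out were added after the data were seen.

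Over all genes, 3100 higher and 2740 lower became 975 and 1375 with the GC offset, and 1113 and 1568, 750 and 989 or 800 and 1352 with the offset without RBM47-OE replicate 1, 2 or 3. Limma on log2(FPKM + 1) gave 1586 lower, on log2(FPKM + 0.1) 1599 lower, and without a filter 1410 higher and 908 lower. With 1 library left out, 2090 to 3864 were higher and 1675 (without NC replicate 2) to 3508 lower. Library totals shifted the median of all genes by 0.06 and gave 3693 higher and 1889 lower.

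Of the 10 subunits, RB1CC1 and PIK3C3 included, 5 higher and 3 lower became 2 and 1 with the GC offset, 3 higher with a length offset, and 3 and 0 by limma without a filter. The offset without RBM47-OE replicate 1, 2 or 3 gave 3, 3 and 2 higher and 1, 1 and 2 lower. With 1 library left out, 2 to 5 were higher and 2 to 3 lower. Of the other autophagy genes, 28 higher and 16 lower became 13 and 6 with the offset, 15 and 7 by limma without a filter, 8 lower by either filtered limma fit and 10 lower with library totals. The offset without RBM47-OE replicate 1, 2 or 3 gave 11, 9 and 13 higher and 7, 4 and 6 lower. With 1 library left out, 19 to 34 were higher and 7 to 21 lower. The cause of these shifts was not tested.

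No pairing by replicate number was seen in the values, where deviations of same-numbered libraries correlated at -0.060, -0.015 and -0.016. Such values cannot exclude that same-numbered libraries were prepared together, which the sources used here do not state. A replicate block gave 2957 genes higher and 2510 lower, 4 and 3 subunits (BECN1 at an edgeR adjusted p of 0.060) and 26 and 14 other autophagy genes. The block with the GC offset gave 1024 and 1427 genes, 2 and 1 subunits and 10 and 7 other autophagy genes. Groups of 3 libraries and 270 to 388 counts of UVRAG limit what differences could be detected.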
